A study of Mus musculus with 3 samples.

Results

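A TET2 chromatin immunoprecipitation sequencing (ChIP-seq) library was compared with an H2B S112GlcNAc ChIP-seq library, which are 2 of the 3 libraries of the study. Both were taken by their antibody label, and their aligned reads were counted at distinct 5′ ends and strands on chromosomes 1 to 19 of mouse build mm9. The cells were mouse embryonic stem (ES) cells of strain C57BL/6, kept without feeder cells on gelatin in medium with serum and the leukaemia inhibitory factor product ESGRO. No genotype or treatment set the libraries apart, so that the antibody was the only labelled difference: an in-house mouse TET2 antibody against an antibody to H2B S112GlcNAc. The other library, made with an OGT antibody from the same kind of cells, served as a readout that the choice of most bins did not use. There was 1 library per antibody and no input or IgG library was used here, so differences were not checked over replicates and p-values are not given. The labelled cell type was not checked against markers, because no gene annotation of mm9 was used here.

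TET2 is a dioxygenase that oxidises 5-methylcytosine in DNA to 5-hydroxymethylcytosine and further products, and it is expressed in ES cells. It lacks the DNA-binding CXXC domain that some related enzymes carry, and it binds OGT, the enzyme that adds N-acetylglucosamine to serines and threonines of nuclear and cytosolic proteins. H2B S112GlcNAc is histone H2B that carries this sugar on a serine near its C-terminal end. A histone mark can spread over long stretches of chromatin, whereas a bound protein often gives narrow peaks, and the bins of 1, 10 and 100 kb used here separate these scales.

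The TET2 library held 3714882 reads at 3188332 distinct positions, and 14.2% of its reads repeated a position. The H2B S112GlcNAc library held 4501091 reads at 3886030 positions, of which 13.7% of reads were repeats, and it was drawn down at random to 3188332 positions. The OGT library was shallower, with 1814416 positions. Usable bins made up 96.9% of the span, which left 2393820 bins of 1 kb, and each library then had a mean of 1.33 positions per kb. At this depth 37.8% of usable 1 kb bins held no TET2 position and 35.6% held no H2B S112GlcNAc position. Tall bins were commoner in the TET2 library: 12346 bins of 1 kb held at least 10 TET2 positions and 4500 held at least 10 H2B S112GlcNAc positions.

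A few bins were extremely full in both libraries and stood apart before any comparison. At least 50 positions in each library were found in 175 bins of 1 kb, which are called very deep bins here, and this limit was set after the counts had been seen. They were 0.00731% of usable bins but held 9.66% of all TET2 reads and 9.80% of all H2B S112GlcNAc reads. Each position there was read 7.5 times in the TET2 library and 7.98 times in the H2B S112GlcNAc library, against 1.07 and 1.06 times elsewhere. The densities were 205 times the genome mean for TET2, 195 times for H2B S112GlcNAc and 269 times for OGT. TET2 over H2B S112GlcNAc in these bins was 1.05 (exact Clopper-Pearson 95% interval 1.04 to 1.07). All intervals of ratios and densities here cover counting error only, because PCR copies of a molecule are not independent reads. Of the 175 bins, 66 lay in 3 bins of 100 kb, the fullest being chromosome 9 from 3000001 to 3100000 with 39 of them, 27489 TET2 positions and 26502 H2B S112GlcNAc positions. The corrected correlations, the split of the covariance by scale and the local peak counts are given with and without these bins. Covariance against distance, densities at TET2 and H2B S112GlcNAc peaks, classes of peak height and domains by OGT density are given only without them.

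The shared signal was strong at every width. With the counting variance taken off each library's variance, the correlation across bins was 0.984 at 1 kb, 0.996 at 10 kb and 0.998 at 100 kb. Without the very deep bins it was 0.907 at 1 kb, 0.965 at 10 kb and 0.991 at 100 kb. The uncorrected Pearson's r without those bins was 0.471, 0.812 and 0.967. These are descriptions over neighbouring bins of the same libraries, which are not replicates.

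A check that needed no model of counting error gave like values. Without the very deep bins, the plus strand of TET2 against the minus strand of H2B S112GlcNAc had r = 0.298 at 1 kb, and the reverse pairing also had 0.298. The plus and minus strands of the TET2 library itself had r = 0.397, and those of the H2B S112GlcNAc library had 0.275. The cross-library values divided by the geometric mean of the within-library values came to 0.901 at 1 kb, 0.965 at 10 kb and 0.991 at 100 kb.

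Chromosome 18 stood lowest at every width. Without the very deep bins, the corrected correlation over the 19 chromosomes ran from 0.550 to 0.957 at 1 kb, from 0.705 to 0.988 at 10 kb and from 0.924 to 0.995 at 100 kb. A single locus on chromosome 18, at 7608001 to 7610000, carried much of this. With that locus left out the value for chromosome 18 was 0.870 at 1 kb, 0.947 at 10 kb and 0.987 at 100 kb, and the genome value at 1 kb was 0.935.

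The covariance of the libraries was then split into nested scales, without the very deep bins. Differences between 1 kb bins within the same 10 kb carried 48% of it, and differences between 100 kb bins carried 40.1%. The middle scale, between 10 kb bins within 100 kb, carried 11.9%. The shared signal thus had a local and a domain-wide component of like size, with little between. With the very deep bins kept, the same shares were 21.1% within 10 kb, 48.1% at the middle scale and 30.7% between 100 kb bins, so that this split depends on them.

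The libraries weighted these scales differently. Local differences within 10 kb held 58.0% of the TET2 variance above counting and 43.3% of that of H2B S112GlcNAc. Differences between 100 kb bins held 29.8% for TET2 and 45.0% for H2B S112GlcNAc. In absolute terms the TET2 variance was 1.23 times that of H2B S112GlcNAc between 100 kb bins, 1.96 times at the middle scale and 2.48 times within 10 kb. The correlation at each level was 0.991, 0.900 and 0.867 in the same order, lowest where TET2 varied most.

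**Figure D1:**
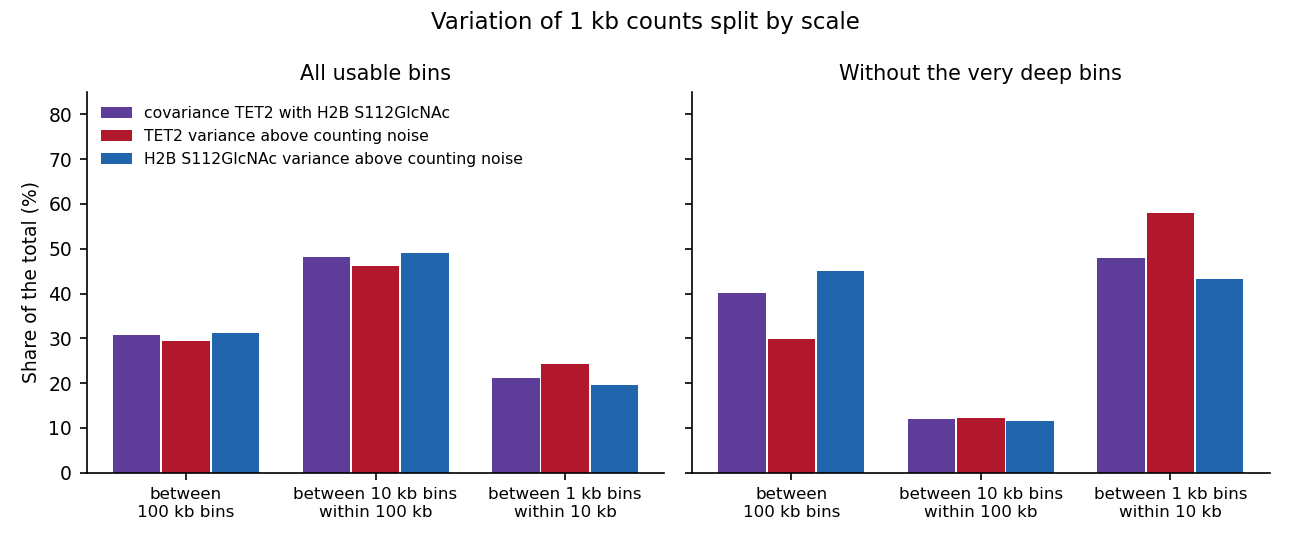
Shares (percent) of the covariance of TET2 and H2B S112GlcNAc and of each library's variance above counting at 3 nested scales, with all usable bins (left) and without the very deep bins (right), 1 library per antibody. On the right the 1 kb scale holds 58.0% of the TET2 variance and 43.3% of the H2B S112GlcNAc variance, and the 100 kb scale holds 29.8% and 45.0%.

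The same 2 components were seen along the chromosome. The covariance of TET2 with H2B S112GlcNAc, divided by the product of their means, was 0.767 within the same 1 kb bin, 0.433 in the adjoining bin and 0.339 at 3 kb. From there it declined slowly, to 0.316 at 10 kb, 0.253 at 100 kb and 0.168 at 1000 kb, and it was 0.0422 at 10000 kb. TET2 with itself went from 1.15 in the same bin to 0.380 at 3 kb, and H2B S112GlcNAc with itself from 0.622 to 0.309. TET2 was 1.85 times H2B S112GlcNAc on this measure in the same bin, and between 1.1 and 1.3 times at every distance of 2 kb or more. The cross value over the geometric mean of the within-library values was 0.907 in the same bin, 0.963 at 1 kb and at least 0.983 from 2 kb on. The libraries thus differed most over distances shorter than 2 kb.

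**Figure D2:**
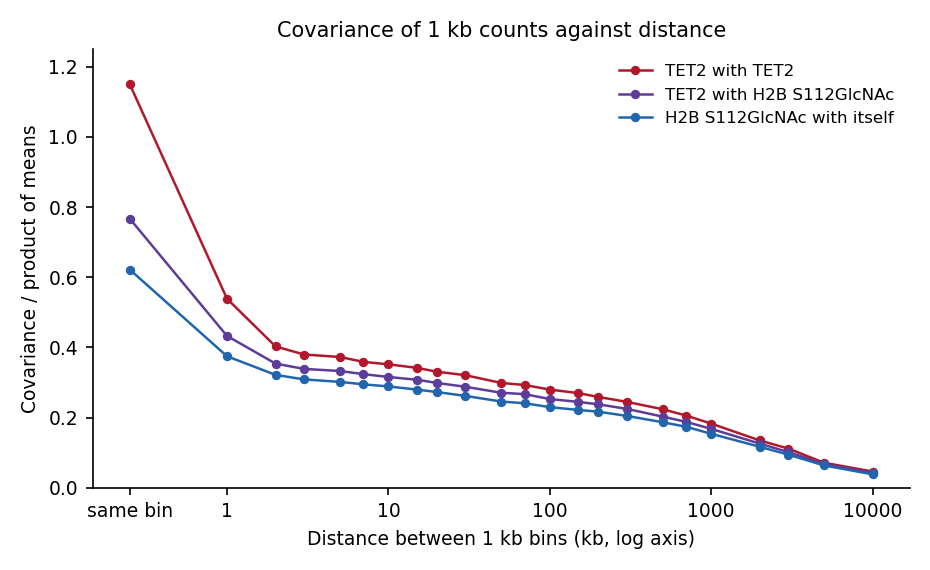
Covariance above counting divided by the product of the means (y axis) against the distance between 1 kb bins in kb (log x axis, the same bin set at the left end), for TET2 with itself, H2B S112GlcNAc with itself and TET2 with H2B S112GlcNAc, without the very deep bins. All 3 curves fall steeply over the first 3 kb and slowly after, and TET2 lies highest in the same bin at 1.15.

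Local peaks were 1 kb bins with at least 10 positions and at least 4-fold over the local background, taken as the largest among the mean of the genome, that of the remaining 10 kb and that of the remaining 100 kb. TET2 had 6891 such bins, 0.288% of usable bins, and H2B S112GlcNAc had 1924, or 0.0804%. The overlap was 1178 bins. That is 17.1% of the TET2 set (16.2 to 18) and 61.2% of the H2B S112GlcNAc set (59.0 to 63.4). These 2 intervals are binomial and take each bin as an independent trial, which bins of 1 library are not. They do not cover read counting, and other settings moved the shares well outside them. Without the very deep bins the counts were 6804, 1838 and 1093, and the shares 16.1% and 59.5%. Without all bins in the top 0.1% of both libraries, a wider exclusion, 558 shared bins remained, and the shares were 9.08% and 43.4%. At the edge of the rule, 1657 TET2 bins had 4-fold to 5-fold over background, and 2137 bins with enough positions had only 3-fold to 4-fold.

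In the 1093 shared bins the median was 16 positions for TET2, 13 for H2B S112GlcNAc and 7 for OGT. The TET2 count was the higher in 773 of them, the H2B S112GlcNAc count in 229, and they were equal in 91. Of the shared bins, 381 also met the rule in the OGT library, against 845 of all 2393645 usable bins outside the very deep bins. The OGT library was shallower under the same minimum of 10 positions. The 6 shared loci that were highest over background in both libraries were taken after leaving out bins in the top 0.1% of both. The bins left out held at least 16 TET2 and at least 11 H2B S112GlcNAc positions. The modest height of the 6 loci was set by this exclusion and is no finding. Chromosome 4 from 88022001 to 88023000 held 14 TET2, 16 H2B S112GlcNAc and 13 OGT positions. Chromosome 9 held such loci at 42827001 to 42828000, with 14, 16 and 11 positions in the same order, and at 88333001 to 88334000, with 14, 14 and 3. Chromosome 10 from 20179001 to 20180000 held 14, 18 and 12. The remaining loci were chromosome 15 from 13313001 to 13314000, with 15, 14 and 6 positions, and chromosome 5 from 100001001 to 100002000, with 15, 20 and 3. The interval of TET2 over H2B S112GlcNAc included 1 at all 6, but choosing loci high over background in both libraries favours like counts.

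Bins called in TET2 and not in H2B S112GlcNAc were, as a set, raised in the latter. At the 5711 such bins H2B S112GlcNAc stood at 4.27 times its genome mean (4.23 to 4.32) and at 2.98 times the rest of the same 10 kb (2.95 to 3.02). It was above its mean in 95.8% of them. That mean was only 1.33 positions per kb, and the share of all usable bins above it is not given here. OGT stood there at 5.64 times its mean. At all 6804 TET2 peaks the densities were 11.5 times the mean for TET2, 5.56 times for H2B S112GlcNAc and 7.10 times for OGT. The rest of the 10 kb around them was level across libraries, at 1.43, 1.41 and 1.4 times the mean, and so was the rest of the 100 kb, at 1.34, 1.33 and 1.32 times. The rule held down the TET2 surroundings and not those of the other libraries, so that these like values do not show equal surroundings. At the 845 OGT peaks described below, the rest of the 10 kb stood at 1.75 times the mean for TET2 and 1.62 times for H2B S112GlcNAc. That TET2 exceeded the others in the bin itself was fixed by the choice of these bins and is no finding.

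The reverse view used peaks chosen in H2B S112GlcNAc. At its 1838 peaks H2B S112GlcNAc stood at 11 times its mean, and TET2 at 11.6 times. The H2B S112GlcNAc positions that the draw had left out, which played no part in the choice, stood at 8.26 times. At the 745 bins called in H2B S112GlcNAc alone, TET2 stood at 5.39 times its mean, the drawn H2B S112GlcNAc positions at 9.02 times and the left-out positions at 5.05 times (4.75 to 5.36). On positions not used to choose these bins, H2B S112GlcNAc was thus no higher than TET2, although the TET2 count had been chosen to fall short of the rule.

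Peaks called in the OGT library used neither count, apart from the very deep bins left out. At the 845 OGT peaks without those bins TET2 stood at 15.5 times its mean and 8.83 times the rest of the 10 kb (8.65 to 9.02). H2B S112GlcNAc stood at 11 times its mean and 6.79 times the rest of the 10 kb (6.64 to 6.96). With the very deep bins kept, neither count entered the set of 932 OGT peaks. There TET2 stood at 21.6 times and H2B S112GlcNAc at 16.8 times its mean, and TET2 over H2B S112GlcNAc was 1.28 (1.26 to 1.31), against 1.41 (1.37 to 1.44) at the 845. TET2 was the higher in 694 of the 932 bins, H2B S112GlcNAc in 186, and they were equal in 52.

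**Figure D3:**
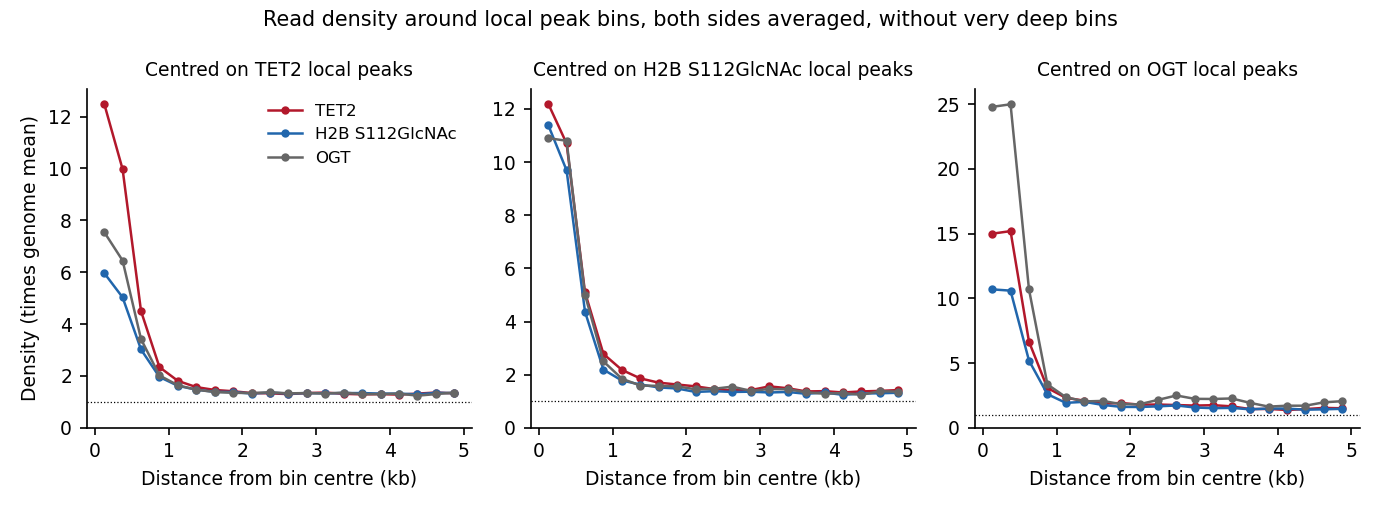
Density of TET2, H2B S112GlcNAc and OGT positions as multiples of the genome mean against distance in kb from the centre of local peak bins, without the very deep bins. Around TET2 peaks TET2 starts at 12.5 times and H2B S112GlcNAc at 5.97 times the mean, and both are near 1.3 times by 2.5 kb.

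The taller the TET2 peak, the more often H2B S112GlcNAc was called there too. For TET2 peaks of 10 to 11 positions, H2B S112GlcNAc was 3.36 times the rest of the 10 kb and was called in 7.52% of 2234 bins. For peaks of 15 to 19 positions these values were 3.65 times and 17.4% of 1542 bins. For peaks of at least 30 positions they were 9.96 times and 67.9% of 246 bins. Outside the 149 bins described next, peaks called in both libraries had 1.53 TET2 reads per position and the 5581 peaks called in TET2 alone had 1.07. The 149 bins themselves had 1.36, and the 79 peaks of at least 30 positions called in TET2 alone had 1.26. The part of such repeats in this was not tested.

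Bins that differed between the libraries were found by a rule of size. The higher library needed at least 15 positions and a ratio of at least 4 with the lower bound of its interval above 2. TET2 was higher by this rule in 149 bins, 0.00622% of usable bins and 4.27% of the bins with at least 15 TET2 positions. H2B S112GlcNAc was higher in 2 bins, 8.35e-05% of usable bins and 0.183% of those with at least 15 of its positions. The TET2 bins formed 147 loci on all 19 chromosomes. TET2 ranged there from 15 to 556 positions with a median of 23, H2B S112GlcNAc from 0 to 25 with a median of 3, and OGT from 0 to 16 with a median of 4. Just outside the rule, 409 bins reached 4-fold with a lower bound that did not pass 2.

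Most of these bins were narrow TET2 peaks, and the other libraries as a set also stood above their means there. Of the 149, 137 were TET2 local peaks, 7 were H2B S112GlcNAc local peaks and 8 were OGT local peaks. Among all 2393820 usable bins, 0.288% were TET2 peaks, 0.0804% were H2B S112GlcNAc peaks and 932 bins were OGT peaks. The choice of the 149 bins used the TET2 and H2B S112GlcNAc counts and not the OGT count. H2B S112GlcNAc was still above its genome mean in 115 and OGT in 142. With means of 1.33 and 0.757 positions per kb this is a low bar. The share of all usable bins above it is not given here. TET2 stood at 26.9 times its mean and OGT, which the rule did not use, at 6.23 times (5.77 to 6.71). The drawn H2B S112GlcNAc positions stood at 3.02 times, but they had been chosen to be low. The left-out positions stood at 5.31 times (4.64 to 6.04), and TET2 over these was 5.06 (4.43 to 5.80), with the TET2 count still the one used for the choice.

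To free both counts from the choice, bins were chosen in a random part of the positions of each library and measured in the other part. The rule then chose 37 bins, where TET2 over H2B S112GlcNAc was 13.9. In the other part the ratio was 6.99 (5.95 to 8.27), and TET2 was the higher in 36 of 37. The parts come from the same libraries, so that this addresses the choice of bins and not the variation between libraries.

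**Figure D4:**
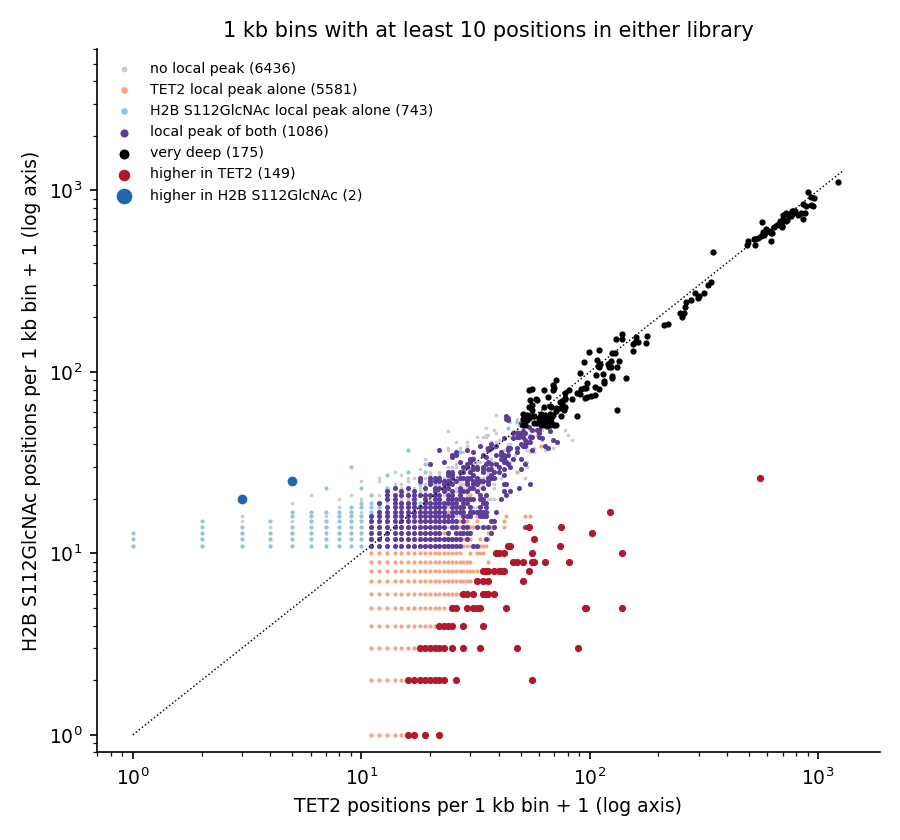
TET2 against H2B S112GlcNAc positions per 1 kb bin plus 1 (both axes logarithmic) for bins with at least 10 positions in either library, coloured by class, with the line of equal counts dotted. The 175 very deep bins follow the line, and the 149 bins higher in TET2 lie below it, the tallest at 556 TET2 and 25 H2B S112GlcNAc positions.

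Ordered by the lower bound of the ratio, the leading locus was chromosome 18 from 7608001 to 7610000, which spanned 2 bins. It held 650 TET2, 29 H2B S112GlcNAc and 19 OGT positions, a ratio of 22.4 (15.5 to 33.7). Chromosome 18 from 67451001 to 67452000 held 137 TET2, 4 H2B S112GlcNAc and 1 OGT positions, a ratio of 34.2 (13.1 to 127). Another locus on this chromosome, from 34671001 to 34672000, held 55, 1 and 6 positions in the same order. TET2 was far above the others at all 3, although at the first of them H2B S112GlcNAc was itself 16.6 times the rest of its 10 kb.

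On chromosome 14, the bin from 118574001 to 118575000 held 88 TET2, 2 H2B S112GlcNAc and 8 OGT positions, a ratio of 44.0 (11.8 to 369). Chromosome 17 from 24777001 to 24778000 held 95, 4 and 4 positions, a ratio of 23.8 (8.98 to 89.0). Chromosome 5 from 66857001 to 66858000 held 137, 9 and 8, a ratio of 15.2 (7.79 to 34.0). At the last of these H2B S112GlcNAc, though far below TET2, was itself 9.0 times the rest of its 10 kb.

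The last named loci were smaller. Chromosome 10 from 7309001 to 7310000 held 47 TET2, 2 H2B S112GlcNAc and 8 OGT positions, a ratio of 23.5 (6.15 to 199.7). It lies within 10 kb of the 100 kb bin from 7200001 to 7300000 that held 7 very deep bins. Chromosome 6 from 21899001 to 21900000 held 21 TET2, 0 H2B S112GlcNAc and 5 OGT positions. Against the floor of 3 H2B S112GlcNAc counts used for a count of 0, the ratio in this bin was 7.0. With the counting error of both counts the lower bound of the ratio was 5.21.

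Both bins higher in H2B S112GlcNAc were small. Chromosome 3 from 82928001 to 82929000 held 2 TET2, 19 H2B S112GlcNAc and 3 OGT positions, a ratio of H2B S112GlcNAc over TET2 of 9.50 (2.29 to 84.1), with 1 further position among those left out. Chromosome 7 from 19895001 to 19896000 held 4, 24 and 7 positions, a ratio of 6.00 (2.06 to 23.8), with 8 further positions among those left out.

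The layout of the strands differed between these classes of bins. Reads from either end of a fragment lie on opposite strands, and the distance from plus to minus 5′ ends then reflects the fragment length. In the 149 bins higher in TET2 the commonest distance was 109 bp, with each bin given the same weight. Pairs 80 to 160 bp apart were 3.98 times as frequent there as pairs at the same distances in the reverse order. Pairs 38 to 48 bp apart, near the read length of 44 bp, were 4.04 times as frequent as their reverse. The 79 TET2 peaks of at least 30 positions that were not called in H2B S112GlcNAc had a commonest distance of 110 bp. Their ratios were 4.70 at 80 to 160 bp and 4.73 at 38 to 48 bp. Of the 147 loci higher in TET2, only 47 had enough positions on both strands for a distance of their own. These tended to be the taller loci. Their median distance was 100 bp, and 40 of them reached 70 bp.

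Peaks called in both libraries were laid out otherwise. Their commonest distance was 42 bp in TET2 and in H2B S112GlcNAc, close to the read length of 44 bp, which is where reads of opposite strands cover the same bases. Pairs 38 to 48 bp apart were 10.2 times as frequent as their reverse in TET2 and 9.51 times in H2B S112GlcNAc, and pairs 80 to 160 bp apart only 1.67 and 1.43 times. The very deep bins had the same commonest distance of 42 bp in both libraries. TET2 peaks outside the H2B S112GlcNAc set and not among the 149 bins, 5581 in number, had 44 bp, 2.23 times near the read length and 1.67 times at 80 to 160 bp. What part reads that match several places in the genome have in the shared peaks was not tested.

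At 10 kb TET2 still stood out more often, and at 100 kb it did not. The rule here was a ratio of at least 1.5, with the whole interval more than 25% above equality, and at least 30 positions in the higher library. At 10 kb TET2 was higher in 423 bins, 0.177% of all, and H2B S112GlcNAc in 78, or 0.0326%. At 100 kb TET2 was higher in 9 bins, 0.0377%, and H2B S112GlcNAc in 18, or 0.0754%. Only 17943 of 239382 bins of 10 kb reached 30 positions, so that most could not be called, whereas all 23879 bins of 100 kb did. The percentages at these widths are thus not on a like footing. Of the 423 bins, 239 or 56.5% held a TET2 local peak, against 2.82% of all 10 kb bins, and 8 of the 9 bins of 100 kb held one, against 23.1% of all. The peaks were called from the same TET2 counts that chose these bins, so that a raised share was in part built in. With local peaks of either library left out, the counts were 205 and 77 at 10 kb, and 1 and 19 at 100 kb.

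The 100 kb bins that led the list for TET2 each held a narrow locus that differed, and were close to level without it. Chromosome 18 from 7600001 to 7700000 held 780 TET2 and 172 H2B S112GlcNAc positions, a ratio of 4.53 (3.84 to 5.38). Without its 2 differing bins of 1 kb it held 130 and 143. Chromosome 18 from 67400001 to 67500000 held 393 and 233 positions, and 256 and 229 without 1 bin. Chromosome 11 from 11900001 to 12000000 held 240 and 140, and 139 and 128 without 1 bin. The 3 leading 10 kb bins also held such loci. Chromosome 18 from 7600001 to 7610000, with 656 and 36 positions, held 6 and 7 without its differing bins. Chromosome 5 from 66850001 to 66860000, with 141 and 18, held 4 and 9 without its differing bin, and chromosome 18 from 67450001 to 67460000, with 166 and 26, held 29 and 22. With the 1 kb bins that differed left out, 347 bins of 10 kb and 3 bins of 100 kb were higher in TET2, against 423 and 9.

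Among bins where H2B S112GlcNAc was higher, an H2B S112GlcNAc local peak was present in 3 of 78 at 10 kb, or 3.85% against 0.788% of all 10 kb bins. At 100 kb it was present in 1 of 18, or 5.56% against 7.39% of all. These peaks too were called from counts that chose the bins. The leading 100 kb bin, chromosome 1 from 186100001 to 186200000, held 76 TET2 and 144 H2B S112GlcNAc positions, with 29 more left out by the draw. Chromosome 3 from 5600001 to 5700000 held 44 and 89, and chromosome 17 from 79800001 to 79900000 held 81 and 145. At 10 kb the leading bin was chromosome 11 from 79790001 to 79800000, with 8 and 35 positions. Chromosome 14 from 79710001 to 79720000 followed with 7 and 32, and chromosome 1 from 12700001 to 12710000 with 7 and 30.

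Broad differences, like those at 1 kb, shrank when chosen and measured in separate parts of the positions. The 99 bins of 10 kb chosen as higher in TET2 had a ratio of 3.07 where chosen and 2.06 (1.95 to 2.19) in the other part, with TET2 the higher in 91. Only 3 bins of 10 kb were chosen as higher in H2B S112GlcNAc, and their ratio of TET2 over H2B S112GlcNAc went from 0.445 to 0.817 (0.624 to 1.07), an interval that includes 1. At 100 kb the 17 chosen for TET2 went from 2.16 to 1.49 (1.38 to 1.62), with 11 in the same direction. The 41 chosen for H2B S112GlcNAc went from 0.476 to 0.878 (0.822 to 0.938), with 29 in the same direction. Over all 100 kb bins the log2 ratio had an SD of 0.218, of which counting alone gives 0.201, and 98.7% of bins lay within 1.5-fold. Domains of 100 kb therefore held nearly equal counts in the libraries at this depth.

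A small graded difference remained between domains. The 100 kb bins were ordered by OGT density, which neither count entered, and split into deciles. TET2 went from 0.455 times its mean in the lowest decile to 2.23 times in the highest, and H2B S112GlcNAc from 0.487 to 2.09 times. TET2 over H2B S112GlcNAc was 0.934 (0.927 to 0.941) in the lowest decile and 1.069 (1.066 to 1.073) in the highest. With local peaks of either library left out it was 0.932 in the lowest and 1.049 in the highest, so that most of the difference lay outside the peaks. Base composition and mappability of the domains were not examined, and their part in this was not tested.

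**Figure D5:**
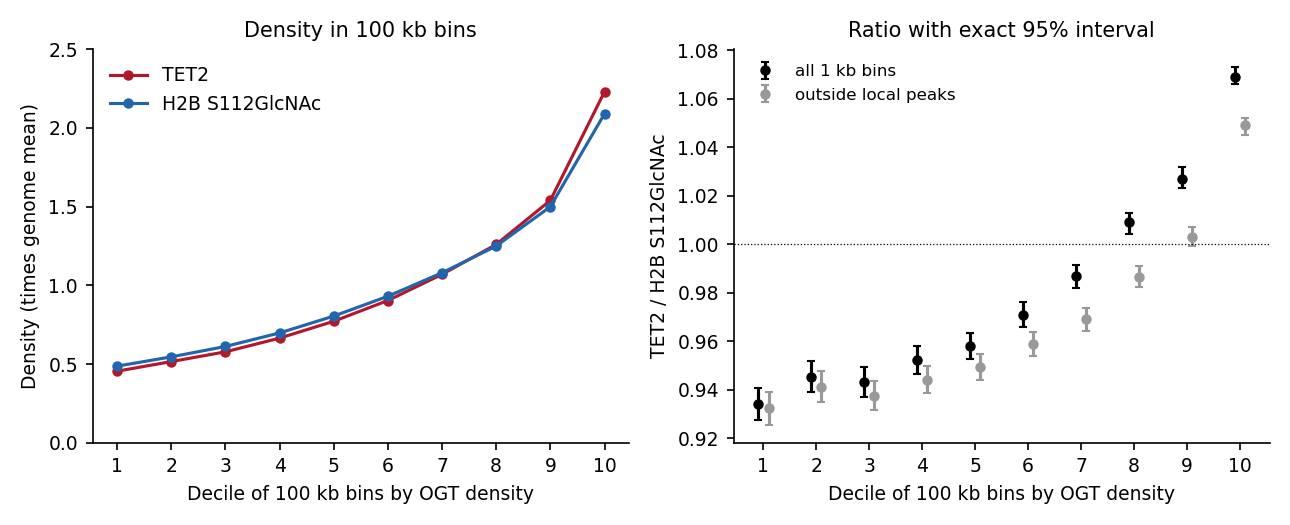
Density of TET2 and H2B S112GlcNAc as multiples of the genome mean (left) and their ratio with exact 95% intervals for counting error (right, axis not from 0), in 100 kb bins grouped into deciles by OGT density (x axis, lowest to highest), over all 1 kb bins and outside local peaks, without the very deep bins. The ratio over all positions goes from 0.934 in the lowest decile to 1.069 in the highest.

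Local peaks lay mostly in the dense domains. TET2 had 0.205 peaks per Mb in the lowest decile and 7.17 in the highest, and H2B S112GlcNAc had 0.0587 and 1.96. A fixed minimum of 10 positions is easier to reach in a dense domain, and its part in this was not tested. Of the 148 bins higher in TET2 in these domains, 50 or 33.8% lay in the highest decile, which held 25.2% of TET2 peaks. A TET2 peak was present in 22.8% of 100 kb bins and an H2B S112GlcNAc peak in 7.09%.

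Whole chromosomes differed little. TET2 over H2B S112GlcNAc lay between 0.981 on chromosome 14 and 1.02 on chromosomes 11 and 17. TET2 local peaks ranged from 2.09 per Mb on chromosome 3 to 4.0 on chromosome 11, and H2B S112GlcNAc peaks from 0.658 on chromosome 1 to 1.03 on chromosome 19.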

How the data were processed

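The deposited files list 1 aligned read per line with its position and strand, on mm9. Every read was 44 bp, and the deposited score was 255 in each line and was not used. Per the submitters' processing notes the tools included Bowtie 0.12.2 and CASAVA 1.4, whose roles are not stated. The sources used here do not say how the authors handled repeated reads or reads with several matches.

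Reads with the same 5′ end and strand were counted once, on chromosomes 1 to 19. The deeper library was drawn down once with a fixed seed (11). A 10 kb stretch was usable with at least 1 position in either library, and wider bins needed 80% usable 1 kb bins. Counting variance was taken as Poisson. A count of 0 stood at a floor of 3 in ratios, and intervals were exact Clopper-Pearson intervals at 95%. Loci merged bins within 5 kb.

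Named regions were the 8 loci with the highest lower bound of TET2 over H2B S112GlcNAc, up to 4 the other way (2 existed), 6 shared peaks, and 3 bins each way at 10 and 100 kb. The comparison and its rules were chosen with earlier results of these data known. The code was checked on simulated counts. Python 3.11.15, numpy 2.4.6, scipy 1.17.1, pandas 2.3.3 and matplotlib 3.10.9 were used. Alternatives were every read counted, 5′ ends moved by 100 bp, bins moved by part of their width, another draw, other scalings, stricter limits, and leaving out the fullest bins. Chromosomes X, Y and M were not compared. Gene names and sequences are not given, because the tables used for reference are of another build than the files.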

Additional observations from a re-analysis of the deposited data

Results flagged for a closer look

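Reads outside chromosomes 1 to 19 were not part of the comparison and lay above the 3 reads that a count of 0 allows. Chromosome X held 115274 TET2 reads and 144392 H2B S112GlcNAc reads. Scaled to the positions on chromosomes 1 to 19, TET2 over H2B S112GlcNAc was 0.965 (0.957 to 0.973) there. Chromosome Y held 1187 and 1271 reads, a scaled ratio of 1.07 (0.977 to 1.17). The mitochondrial chromosome, M, held 894 and 1209 reads, a scaled ratio of 0.917 (0.836 to 1.0).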

How the results depend on the processing

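No paired analysis was possible because TET2 and H2B S112GlcNAc had a single library each. Of 118 values recomputed under alternatives, 89 stayed within the spread over chromosomes, the exact interval or 1.5 times the count, 29 moved and 0 reversed. The corrected correlations moved under no alternative, but their yardstick, the SD over chromosomes, was wide at 1 kb, at 0.0899. The 1 kb value was 0.984 in the main setting, 0.925 without the top 0.1% bins and 0.907 without the very deep bins. TET2 had more differing bins than H2B S112GlcNAc at 1 and 10 kb, and fewer at 100 kb, in all 9 settings of scaling, counting and bins. The split of the covariance moved most. Between 100 kb bins, between 10 kb bins and within 10 kb it was 44.5%, 10.8% and 44.8% without bins in the top 0.1% of both libraries, 4.12%, 25.2% and 70.7% with every read counted, and 14.1%, 21.6% and 64.3% with bins moved by part of their width. Without the very deep bins, an alternative added after seeing the data, the last 2 shares were 11.9% and 48%. An 8-fold limit left 1958 TET2 and 541 H2B S112GlcNAc local peaks, fewer by construction. The share of TET2 peaks also called in H2B S112GlcNAc was 9.08% without the top 0.1% bins, 18.3% with every read counted, 20.4% at 8-fold and 16.1% without the very deep bins. The share of H2B S112GlcNAc peaks called in TET2 was 43.4% without the top 0.1% bins, 55.4% with every read, 58.1% with bins moved and 73.9% at 8-fold. The 1 kb bins higher in H2B S112GlcNAc numbered 4 with every read, 1 with 5′ ends moved by 100 bp and 1 with another draw. At 10 kb they numbered 148 with every read and 159 with full libraries, and at 100 kb 37 with every read. The 100 kb bins higher in TET2 numbered 14 with bins moved and 5 with full libraries. Apart from the 8-fold limit, the cause was not tested. Measuring in left-out positions or in a separate part, leaving out 1 locus, and keeping the very deep bins among OGT peaks were also added after seeing the data. Depth near 1 position per kb limits single 1 kb bins, and 1 library per antibody leaves library and antibody impossible to tell apart.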
